A study of Caenorhabditis elegans with 2 samples.

Results

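Autosomal intergenic non-promoter peaks of NHR-2 in Caenorhabditis elegans embryos made up 384 of the 1405 autosomal peaks in the authors' thresholded list, which held 456 further peaks on other chromosomes. A peak was a member when its summit lay in no annotated gene of any kind and in no promoter window, and when its interval overlapped no gene of the annotated type ncRNA. Promoter windows reached 1000 bp upstream and 200 bp downstream from each protein-coding 5′ end. Coordinates are on build ce11. The remaining autosomal peaks were 499 promoter peaks, 334 intronic peaks and 188 others. No measured value chose the members beyond the threshold that all peaks passed.

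Both libraries were chromatin immunoprecipitations with sequencing (ChIP-seq) from whole animals of strain OP99, which carries the unc-119(ed3) mutation and the integrated transgene wgIs99. They were biological replicates 1 and 2 of 1 group, embryos of mixed stage and mixed sex, and the labels give no age. One label field names an eGFP fusion of NHR-2 as the precipitated protein and another names nhr-2 as the antibody, so the labels do not settle which antibody was used. The animals hold nhr-2 sequence both at the native gene and in the transgene. The labels name a control, which was not analysed here, and neither was any library from animals lacking the transgene. With a single group, every comparison is between regions of the genome. Peaks are not replicates of a condition, and the p-values and the 95% exact intervals over peaks cover counting error only. The lists give no read numbers, so the sequencing depth is unknown. The signal is the authors' enrichment score for a region and has no further unit.

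NHR-2 belongs to the nuclear hormone receptors, zinc-finger transcription factors among which are the vertebrate steroid, retinoid and thyroid hormone receptors. Many receptors of the family bind the half-site AGGTCA, alone or as a repeat. In the compact worm genome most regulatory sequence lies close to 5′ ends, and sequence farther away, between genes, can hold enhancers, which act on a promoter from a distance. GA repeats and E-boxes, the sites of basic helix-loop-helix (bHLH) factors, are other sequence classes found in worm regulatory DNA.

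The sequences below show the 3 words by which the summits are described in what follows. The first set holds the 6 strongest members, among the chromosomes whose sequence is printed, with a copy of AGGTCA within 75 bp of the summit. Each name is the gene with the nearest protein-coding 5′ end, the coordinates are on ce11, and the strand is the one that reads the word. Capitals mark the word.
F58H1.5 (chrV:11953211-11953271, plus strand): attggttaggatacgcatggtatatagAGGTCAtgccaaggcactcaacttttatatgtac
C47A4.1 (chrIV:13719114-13719174, minus strand): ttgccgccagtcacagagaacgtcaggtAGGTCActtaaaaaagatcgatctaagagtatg
sbp-1 (chrIII:11447019-11447079, minus strand): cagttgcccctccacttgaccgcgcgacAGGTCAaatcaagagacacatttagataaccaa
csa-1 (chrII:9317048-9317108, plus strand): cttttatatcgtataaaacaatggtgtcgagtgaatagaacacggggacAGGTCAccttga
egl-27 (chrII:6831746-6831806, minus strand): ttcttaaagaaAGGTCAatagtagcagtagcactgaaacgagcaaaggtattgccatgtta
Y65A5A.2 (chrIV:16410452-16410512, plus strand): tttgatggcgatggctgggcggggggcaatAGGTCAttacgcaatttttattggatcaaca

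The only 4 members with 2 copies of AGGTCA in the summit window are shown as the whole window of 151 bases on the plus strand. Capitals mark each copy, and a copy on the other strand reads TGACCT.
rga-9 (chrII:15261767-15261917, plus strand): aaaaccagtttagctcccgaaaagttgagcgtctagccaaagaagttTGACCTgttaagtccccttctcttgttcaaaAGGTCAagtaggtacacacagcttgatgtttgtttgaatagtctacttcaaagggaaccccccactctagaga
egl-1 (chrV:14436325-14436475, plus strand): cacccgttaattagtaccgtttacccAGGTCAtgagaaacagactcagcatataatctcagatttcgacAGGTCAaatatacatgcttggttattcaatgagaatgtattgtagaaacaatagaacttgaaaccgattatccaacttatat
R09E10.5 (chrIV:10303445-10303595, plus strand): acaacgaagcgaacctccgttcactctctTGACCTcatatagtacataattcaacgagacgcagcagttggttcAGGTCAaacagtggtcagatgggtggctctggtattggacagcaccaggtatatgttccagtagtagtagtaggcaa
unc-129 (chrIV:9007185-9007335, plus strand): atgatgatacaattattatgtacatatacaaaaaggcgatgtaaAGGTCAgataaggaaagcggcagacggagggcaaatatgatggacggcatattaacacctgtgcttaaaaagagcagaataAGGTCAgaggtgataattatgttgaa

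Strong members without AGGTCA in the window are shown next, with GAGAGA in capitals.
adah-1 (chrIV:7023176-7023236, minus strand): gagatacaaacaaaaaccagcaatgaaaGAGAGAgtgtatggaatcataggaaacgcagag
egl-46 (chrV:6684726-6684786, minus strand): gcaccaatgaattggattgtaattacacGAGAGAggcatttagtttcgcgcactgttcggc
unc-71 (chrIII:12894365-12894425, plus strand): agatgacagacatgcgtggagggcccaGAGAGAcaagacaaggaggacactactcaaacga
fbxa-220 (chrIII:11481476-11481536, plus strand): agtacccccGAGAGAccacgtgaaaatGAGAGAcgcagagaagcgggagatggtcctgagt

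Strong members without AGGTCA whose windows held the E-box word CAGGTG are shown with that word in capitals.
unc-71 (chrIII:12894402-12894462, plus strand): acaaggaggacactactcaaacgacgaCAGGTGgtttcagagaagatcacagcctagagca
F28F9.2 (chrIV:3843155-3843215, minus strand): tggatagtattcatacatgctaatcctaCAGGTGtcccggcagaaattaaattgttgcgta
ceh-27 (chrV:11660758-11660818, plus strand): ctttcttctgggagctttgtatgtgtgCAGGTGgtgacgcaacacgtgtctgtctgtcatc
msp-78 (chrIV:9770988-9771048, plus strand): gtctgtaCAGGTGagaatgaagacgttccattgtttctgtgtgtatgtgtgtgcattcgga

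Strong members whose summit windows held no exact copy of the half-site word, the GA word or any of the 3 E-box words searched are shown as 101 bases around the summit, with no capitals. Shifted or changed forms of these words can still be present, as in the egl-1 window, which holds the GA repeat shifted by 1 base. That window also holds TGACCC, which on the other strand reads GGGTCA, the half-site word with its first base changed.
cyd-1 (chrII:12978818-12978918, plus strand): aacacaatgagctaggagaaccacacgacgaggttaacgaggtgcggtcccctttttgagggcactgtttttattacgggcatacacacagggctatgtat
egl-1 (chrV:14433704-14433804, plus strand): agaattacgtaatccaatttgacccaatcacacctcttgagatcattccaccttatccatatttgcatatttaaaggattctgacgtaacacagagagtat
F54C8.6 (chrIII:9451094-9451194, plus strand): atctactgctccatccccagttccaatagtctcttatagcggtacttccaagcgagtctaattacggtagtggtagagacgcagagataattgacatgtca

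Intergenic candidate regions reached the thresholded list at about the rate of promoter candidates and more often than intronic candidates. Of 5550 intergenic candidate regions of the series list, 384 were in the thresholded list, which is 6.92% (6.27 to 7.62), against 7.24% of promoter candidates (6.64 to 7.88) and 3.89% of intronic candidates (3.49 to 4.32). These shares were not tested against each other. Over all autosomal candidates the share was 5.66%. Sequence in which a member could lie, called eligible here, came to 16 Mb, so there were 24.0 members per Mb, against 27.1 promoter peaks per Mb of promoter window. The weakest 3 members had signals of 51.7, 51.7 and 51.7, and the 3 intergenic candidates just below the threshold had signals of 51.6, 51.5 and 51.5.

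Members were spread over all autosomes. Chromosome I had 87 members, or 35.5 per Mb of eligible sequence, chromosome III 67 (27.7 per Mb), chromosome II 73 (24.5 per Mb), chromosome IV 85 (20.1 per Mb) and chromosome V 72 (18.5 per Mb). With each chromosome cut into a left, a central and a right part of equal length, the density was 25.8, 24.0 and 22.3 members per Mb, so density differed little between the arms and the centres. Members did not gather in the longest gaps between genes. Gaps under 5 kb held 21.5 per Mb, gaps of 5 to 10 kb 26.8, gaps of 10 to 20 kb 25.4 and gaps over 20 kb 19.7.

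The orientation of the neighbouring genes went with larger differences in density. Gaps between divergent genes, where both 5′ ends face the gap, held 138 members (28.7 per Mb). Gaps between tandem genes held 218 (25.7 per Mb). Gaps between convergent genes, which no 5′ end faces, held 28 members (10.4 per Mb). The summit lay upstream of the nearest protein-coding 5′ end in 293 members, which is 76.3% (71.7 to 80.5), while 66.3% of eligible bases lay upstream. This was 27.6 members per Mb upstream and 16.9 per Mb downstream.

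The median distance was 2702 bp for members, with quartiles of 1681 and 4352 bp and a range of 707 to 13459 bp, against a median of 2696 bp over eligible bases. On the upstream side the density was 28.8 per Mb up to 2 kb from the 5′ end and 28.7 per Mb between 5 and 7.5 kb, with 38 per Mb between 4 and 5 kb, a bin of 36 members. Beyond 7.5 kb it was 18.3 per Mb, from 15 members. On the downstream side the density varied more. It was 10.9 per Mb up to 2 kb, 23.5 at 2 to 3 kb, 24.9 at 3 to 4 kb, 11.6 at 4 to 5 kb (6 members), 22.2 at 5 to 7.5 kb and 9.62 beyond 7.5 kb (6 members).

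**Figure D1:**
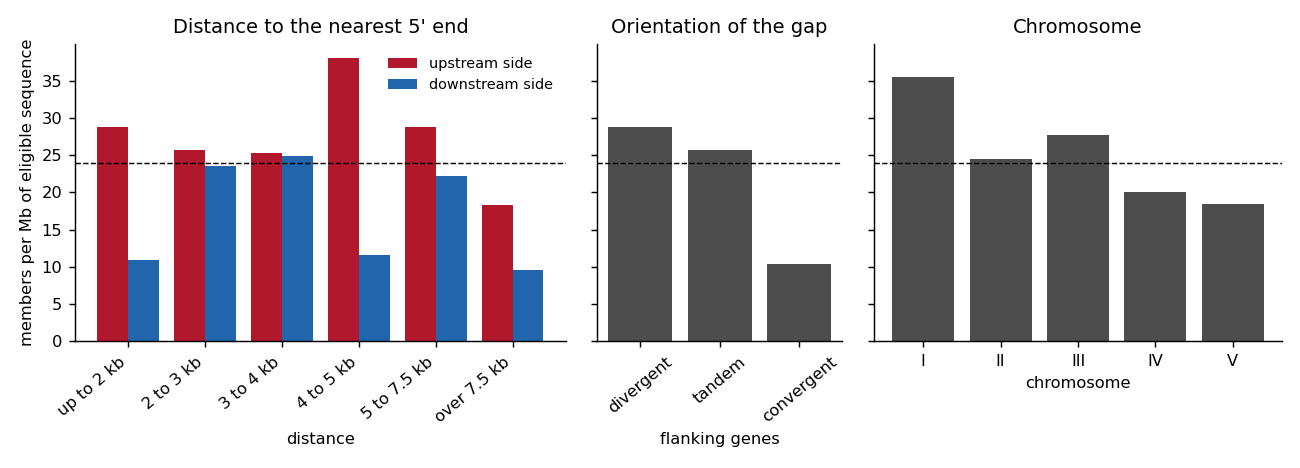
Members per Mb of eligible sequence by distance and side of the nearest protein-coding 5′ end (left), by orientation of the flanking genes (middle) and by chromosome (right), with the density over all eligible sequence as a dashed line at 24.0 per Mb. Convergent gaps stand lowest in the middle panel at 10.4 per Mb, and the upstream bar is above the downstream bar in every distance bin.

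Of the 91 members downstream of the nearest 5′ end, 63 had the 5′ end of another gene facing them from farther away, at a median of 6053 bp, and 28 had none. The genes that face them were looked up after the values were seen, and most of those named here are a selection of developmental genes. Strong members were also faced by bed-2 (the fbxa-220 member, signal 403), zip-10 (ceh-27, 318) and gem-4 (K01A6.5, 313). The F28F9.2 member with a signal of 339 was faced at 12624 bp by zag-1, which encodes a zinc-finger homeodomain factor of neurons. The csa-1 member (signal 267) was faced at 6729 bp by cam-1, a receptor tyrosine kinase of the Ror family, and the ndg-4 member (signal 268) at 11639 bp by ceh-43, a Distal-less homeodomain gene. The arf-1 member (signal 230) was faced at 4269 bp by wrm-1, a beta-catenin. The assignment to the nearest 5′ end therefore names a neighbour, and the gene a region acts on was not measured.

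Intergenic members were stronger than promoter peaks. The median signal was 96.1 for intergenic members (quartiles 68.2 and 152), 72.5 for promoter peaks (59.1 and 101) and 90.4 for intronic peaks (64.4 and 152). Above the autosomal median of 82.5 lay 61.5% of intergenic members against 36.9% of promoter peaks, an odds ratio of 2.73 (two-sided Fisher exact test, p adjusted over 2 class comparisons 9.00e-13). Against the 55.7% of intronic peaks the odds ratio was 1.27 and the difference did not pass the exact test (adjusted p = 0.129). Without the strongest 10% of peaks this last difference passed the exact test, at 9.05 percentage points (adjusted p = 0.0236). Among the strongest 930 peaks it turned to -4.20 points (exact test, adjusted p = 0.427).

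Each replicate list gave the same order against promoters. In replicate 1, 63.0% of intergenic members lay above the median of that list's values for the peaks, against 34.4% of promoter peaks (adjusted p = 6.70e-17, two-sided Fisher exact test). In replicate 2 the shares were 58.0% for intergenic members and 41.4% for promoter peaks (adjusted p = 2.64e-06, two-sided Fisher exact test). At these thresholded peaks the difference from promoters was thus smaller in replicate 2. With each replicate's own strongest regions in place of the thresholded list the order was the other way. The difference was then 20.6 percentage points in replicate 1 and 24.1 in replicate 2. The difference between the replicates was not tested.

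**Figure D2:**
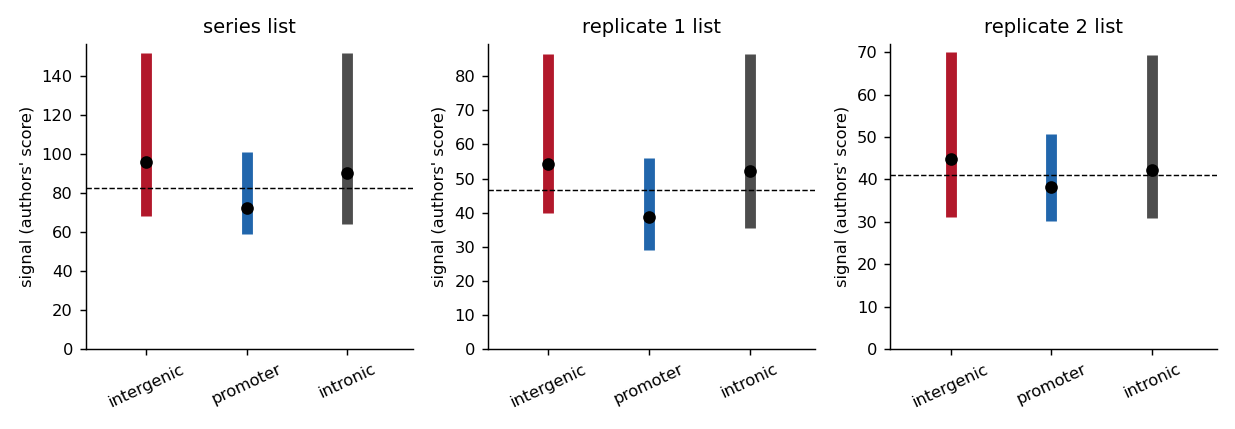
Signal, the authors' score, of intergenic, promoter and intronic peaks in the series list and in each replicate list, with the median as a black point, the quartiles as a bar and the median of all autosomal thresholded peaks as a dashed line. The intergenic median lies above the dashed line and the promoter median below it in all 3 lists, and scales differ between panels.

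Both replicates held nearly all members. A candidate region of each replicate overlapped 383 of the 384, and 289 (75.3%, 70.6 to 79.5) were among the strongest regions of both, taking from each replicate as many regions as there were thresholded peaks. The same held for 58.9% of promoter peaks and 69.8% of intronic peaks. In replicate 1 alone these strongest regions held 92.4% of members, 74.7% of promoter peaks and 85.9% of intronic peaks. In replicate 2 alone the shares were close, at 81.8% of members, 80.8% of promoter peaks and 81.1% of intronic peaks. Among the 3000 strongest regions of both replicates they were close as well, at 87.8% of members, 85.0% of promoter peaks and 88.3% of intronic peaks. The summits that the replicates placed in a member were a median of 27 bp apart, and 71.5% were within 50 bp. Over the 383 members the Spearman correlation between the replicates' signals was 0.740, and Pearson's r of the log2 signals was 0.787. This is a description across peaks of 1 strain that were selected on both replicates.

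The strongest member was next to the gene of the factor, with its summit at chromosome I 5822750 and 1616 bp upstream of where nhr-2 begins. Its signal was 2151 in the series list, 1169 in replicate 1 and 988 in replicate 2, more than the next member in each list. Signal at the native gene and at transgene copies of it cannot be told apart here, wherever the transgene carries this sequence. The next was at chromosome I 8138836, 3701 bp downstream of the 5′ end of del-4, a channel subunit gene of the DEG/ENaC family, in a convergent gap (signal 805; 435 in replicate 1 and 374 in replicate 2). The member 2857 bp upstream of hsp-12.1, a small heat shock protein gene, had a signal of 786, with 453 in replicate 1 and 339 in replicate 2.

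Several strong members lay by regulators of cell fate, cell death and division. A summit at chromosome I 14960471 lay upstream of ces-2, at 1026 bp, a bZIP gene that specifies the death of a particular neuron's sister cell (signal 737; 414 and 323 in replicates 1 and 2). One at chromosome V 6684788 lay upstream of egl-46, at 3215 bp, a zinc-finger gene of neuroblast lineages (signal 642; 351 and 292 in replicates 1 and 2). One at chromosome II 12978868 was 1723 bp upstream of cyd-1, the cyclin D gene (signal 574; 340 and 236 in replicates 1 and 2). At egl-1, whose BH3-only protein starts programmed cell death, there were 2 members in the same divergent gap. The nearer one, 1395 bp upstream, had a signal of 380, with 202 in replicate 1 and 184 in replicate 2. The farther one, 4041 bp upstream, had a signal of 105, with 58.9 in replicate 1 and 46.9 in replicate 2. The farther egl-1 member is a window with 2 copies of AGGTCA and the nearer one is a window with no exact copy of the searched words, both printed above.

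The rest of the 20 strongest had signals from 313 to 733. They included adah-1 (733), Y37E3.30 (481), unc-71, an ADAM protease gene of axon guidance (460), spe-9, a sperm surface protein gene (404), fbxa-220 (403), clr-1, a receptor tyrosine phosphatase gene (400), ceh-45, a homeodomain gene (356), F58H1.5 (346), F28F9.2 (339), C47A4.1 (326), F54C8.6 (322), ceh-27, an NK-class homeodomain gene (318), and K01A6.5 (313). In both replicates all 20 ranked between 1 and 134 by signal. The spe-9 summit lay in the gap flanked by C17D12.5 and unc-75, so spe-9 had the nearest 5′ end but was not a flanking gene.

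Some members lay near other summits, and no matching share of eligible bases was computed for comparison. Another member summit lay within 2 kb of 119 members (31.0%) and another thresholded summit of any class within 2 kb of 156 (40.6%). The 384 members were nearest to 299 genes, which is 1.73% of the 17242 autosomal protein-coding genes. Of these genes, 235 had 1 member, 45 had 2, 17 had 3 and 2 had 4. The genes with 4 were hlh-2 and tcl-2. The hlh-2 gene encodes the worm E protein, the common dimer partner of bHLH factors, and its members lay 1052, 2202, 2793 and 4503 bp upstream with signals of 95.8, 149, 70.1 and 184. The tcl-2 members lay 1416, 4499, 4701 and 5850 bp upstream with signals of 141, 52.1, 138 and 191. The middle pair of tcl-2 summits rests on the same region in each replicate, so these are not separate there.

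Among genes with 3 members, pha-4, the FoxA factor gene of pharynx identity, had 2 upstream at 1722 and 2370 bp, with signals of 108 and 61.7. The other was downstream at 7755 bp, with a signal of 215. The Frizzled receptor gene cfz-2 had members at 2385, 4219 and 5155 bp upstream with signals of 98.4, 90.0 and 242. The Toll receptor gene tol-1 and the zinc-finger gene ztf-6 had 3 upstream members each, with signals from 100 to 206 and from 103 to 179. Of the 299 genes, 44 (14.7%, 10.9 to 19.2) also had a thresholded summit in their promoter window, against 3.80% of all autosomal protein-coding genes. Of those 17242 genes, only 9244 were nearest to any eligible base, so the gene sets are unlike.

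Genes of 3 groups of transcription factors had an assigned member in larger shares than autosomal genes as a whole. Of 69 homeodomain genes on the autosomes, 11 had an assigned member, or 15.9%. Of 30 bHLH genes, 9 had one, and of 115 genes of zinc-finger and other fate factors, 15 (13%). Over all genes the share was 1.73%. Gene groups differ in how much eligible sequence is nearest to them, so members were also set against that sequence. There were 101, 145 and 108 members per Mb of eligible sequence nearest to these groups, against 24.0 over all genes. The gene groups were chosen with earlier results of these data known, so these are counts with no test.

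Homeodomain examples were ceh-45 with 3 members, ceh-27, and nob-1, a posterior Hox gene with a member 8479 bp upstream (signal 287). Of the bHLH genes, sbp-1, the worm SREBP gene, had a member 4484 bp upstream (signal 295), and hif-1, the hypoxia-inducible factor gene, had one 1882 bp upstream (signal 179). Nuclear hormone receptors had a smaller share than all genes, at 0.405% (0.0102 to 2.23), though the interval includes the 1.73% over all genes. Of 247 such genes only nhr-2 itself was assigned a member, or 3.09 members per Mb. With both flanking genes counted in place of the nearest 5′ end, 5 nuclear hormone receptor genes had one, and 519 genes in all.

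Signalling and morphogenesis groups also had larger shares than the 1.73% over all genes. The intervals of the cell cycle and Wnt shares include that value, however, and the interval of the Notch share begins just above it. Of 41 axon guidance and cell migration genes, 8 had a member (19.5%, 113 per Mb), with signals of 400 at clr-1, 187 at vab-2, an ephrin gene, and 173 at ina-1, an alpha integrin gene. Of 26 programmed cell death genes 4 had one (15.4%), among them ces-2, egl-1 and the engulfment receptor gene ced-1 (signal 188). That group has 0.0145 Mb of eligible sequence, so its 345 members per Mb rest on 5 members. Of 36 Notch pathway genes 3 had a member (8.33%), namely the receptor gene lin-12 (signal 219) and the ligand genes apx-1 (82.9) and lag-2 (55.4). The lag-2 member was weak in replicate 2, with a signal of 12.2 at rank 17320, against 38.4 at rank 1256 in replicate 1. Of 65 cell cycle genes 3 had one (4.62%, 103 per Mb), cyd-1, the Polo-like kinase gene plk-2 and the E2F-like gene efl-3. Of 27 Wnt genes only cfz-2 had a member (3.70%, and 7 genes when both flanking genes were counted), and of 43 genes of the apical matrix and epidermis 4 (9.30%), including fbn-1 and noah-2.

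Chemoreceptor and neuropeptide genes had lower shares and densities than all genes. The interval of the chemoreceptor share (0.173 to 1.02) lies below the share over all genes. That of the neuropeptide share (0.0237 to 5.10) includes it. Of 1276 chemoreceptor genes 6 had a member (0.470%, 7.14 members per Mb), and of 107 neuropeptide genes 1 (0.935%, 4.08 per Mb), against 1.73% and 24.0 per Mb over all genes. Ribosomal protein genes, with 1 of 77 (1.30%, 23.1 per Mb), and cuticle collagen genes, with 2 of 148 (1.35%, 15.1 per Mb), had shares nearer to that of all genes. Their intervals (0.0329 to 7.02 and 0.164 to 4.80) include the share over all genes as well. Histone genes had 0 of 68, with little eligible sequence nearest to them (0.0140 Mb). Heat shock genes were above all genes in share and density, with 3 of 57 (5.26%, 81.5 per Mb). Their interval of 1.10 to 14.6 includes the 1.73% over all genes. The heat shock genes with a member were hsp-12.1 (signal 786), dnj-25 (61.4) and dnj-27 (58.5).

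**Figure D3:**
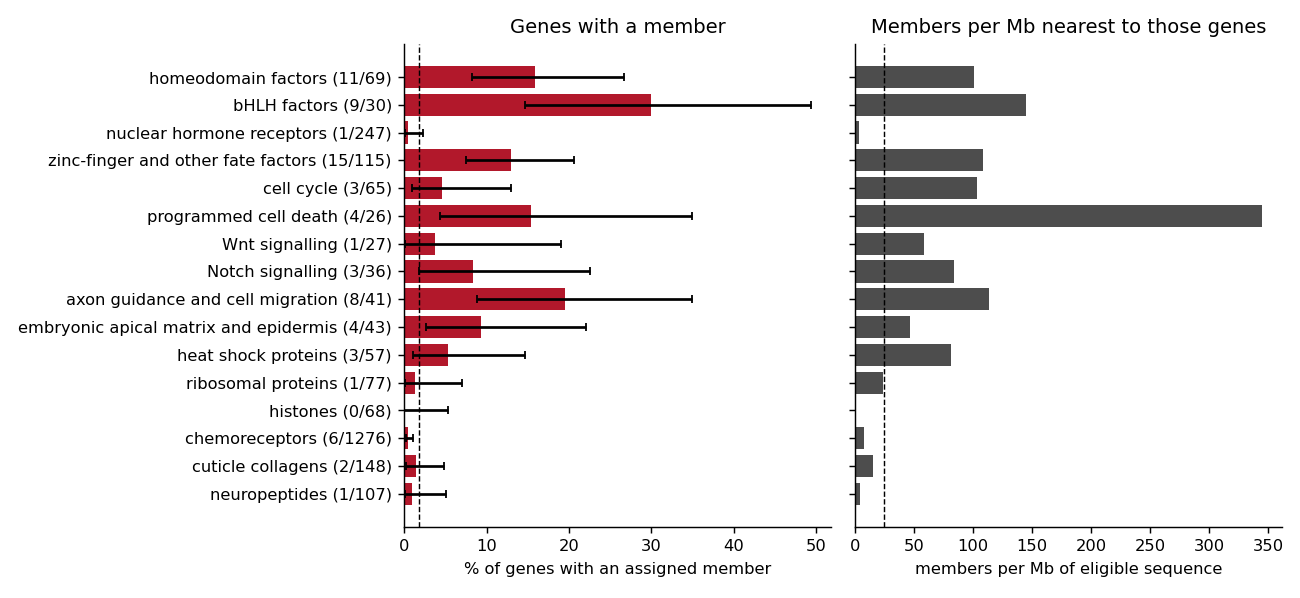
Share of genes with an assigned member (left, with 95% exact intervals over genes) and members per Mb of eligible sequence nearest to those genes (right) for 16 gene groups, with genes with a member over all genes of the group in brackets. Dashed lines show all autosomal protein-coding genes, at 1.73% and 24.0 per Mb.

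Noncoding RNA genes lay within 1 kb of some members. This was so of 66 members (17.2%) for genes of the annotated type ncRNA, against 9.80% of eligible bases. It was so of 7 members (1.82%) for tRNA genes, against 0.594% of eligible bases, and of 7 (1.82%) for snoRNA genes, against 0.641%. A miRNA gene lay within 1 kb of 4 members (1.04%), against 0.603% of eligible bases, and a piRNA gene of 22 members (5.73%), against 12.8%. None of these shares was tested. The miRNA genes were looked up after the values were seen. A summit on chromosome V with a signal of 52.9 was 27 bp from mir-241, of the let-7 family. Summits with signals of 112 and 104 lay on both sides of the mir-42, mir-43 and mir-44 cluster on chromosome II, and one with a signal of 152 was 232 bp from mir-45.

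The summits differed in base composition from sequence beside them. The 151 bases around the summit had a median GC content of 44% in members, against 33.1% in a window of the same width centred 400 bp to a side drawn at random. GC was higher at the summit in 85.2% of members. All 95404 intergenic windows of that width had a median of 33.8%. Promoter and intronic summits were of like composition, with medians of 44.4% and 45.7%.

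Words of 6 bases were compared next. Summit and flanking windows of the same member were compared for the presence of every 6-base word on either strand. The tests were two-sided exact McNemar tests, adjusted by Benjamini-Hochberg over all words. At an adjusted p under 0.05, 510 words were called, or 24.5% of those tested, of which 322 (15.5%) were more frequent at summits and 188 less frequent. The lowest p-values belonged to AT-rich words that were rarer at summits, led by AAAATT at 12.2% of summit windows and 62.2% of flanks. Of words without G or C, 0% were called more frequent at summits, and of words with 1, 2, 3, 4, 5 and 6 such bases 0.521%, 8.13%, 19.5%, 23%, 17.7% and 25% were. A word called more frequent at summits is therefore no rarity here, and the planned words are read against these shares.

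The nuclear receptor half-site AGGTCA was in the summit window of 71 members, 18.5% (14.7 to 22.7), against 3.91% of flanks (exact McNemar test, adjusted p = 3.00e-10). GAGAGA, a GA repeat, was in 30.7% of summit windows and 6.25% of flanks (exact McNemar test, adjusted p = 4.21e-16). The E-box CAGGTG was in 21.4% of summit windows and 5.21% of flanks (exact McNemar test, adjusted p = 2.67e-09). Overlapping shifts of the GA repeat, such as AGAGAG, were called too. By p-value among the words more frequent at summits, GAGAGA was first, AGGTCA was seventh and GGGTCA, which differs from AGGTCA in its first base, was sixth at 15.9% of summits and 2.08% of flanks.

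The other two E-boxes had smaller differences in the exact McNemar test, CAGCTG with 6.51% of summits and 2.08% of flanks (adjusted p = 0.0223) and CACGTG with 7.29% and 2.60% (adjusted p = 0.0246). Both calls depended on the setting. Leaving out the strongest 10% of peaks ended both (exact McNemar test, adjusted p = 0.167 for CAGCTG and 0.0708 for CACGTG). So did flanks wholly outside genes, a setting chosen after the word results were seen (exact McNemar test, adjusted p = 0.0739 and 0.0569 in that order). The CAGCTG call was also lost with either replicate's own regions (differences of 2.70 to 3.84 points) and with windows reaching 50 bp (2.34 points). The CACGTG call was also lost with replicate 1's regions (2.45 points), the strongest 930 peaks (3.40 points) and a flank at 600 bp (4.17 points). The GATA word TGATAA was rarer at summits, at 3.12% against 13.5% of flanks (exact McNemar test, adjusted p = 9.13e-06). GTAAAC, a forkhead word, did not pass, with 6.51% of summits and 9.38% of flanks (exact McNemar test, adjusted p = 0.376).

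None of these calls held among pairs of windows of similar GC content. This setting, chosen after the word results were seen, kept the 83 members whose summit and flank differed by at most 5 percentage points. There, 0 words were called by the exact McNemar test, and 151 had an unadjusted p under 0.05. In the exact McNemar test AGGTCA was in 16.9% of these summits and 7.23% of flanks (adjusted p = 0.687), GAGAGA in 20.5% and 7.23% (adjusted p = 0.568), CAGGTG in 20.5% and 10.8% (adjusted p = 0.817), and TGATAA in 8.43% and 9.64% (adjusted p = 1.00). The subset has far fewer pairs by construction, so the part of base composition in the calls cannot be told apart from the number of pairs.

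A second description, also chosen afterwards and without a test, set the summits beside intergenic windows of the same composition. Windows whose number of G and C bases was within 1 of a member's own held AGGTCA in 5.72% of cases on average over members, against the 18.5% seen at member summits, a ratio of 3.23. For CAGGTG the summits had 21.4% and such windows 5.41%, a ratio of 3.94. For GAGAGA it was 30.7% and 14.6%, a ratio of 2.11, and for TGATAA 3.12% and 7.56%, a ratio of 0.413. Over all intergenic windows, whatever their composition, AGGTCA was in 4.27%, CAGGTG in 3.49%, GAGAGA in 8.27% and TGATAA in 12.8%.

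**Figure D4:**
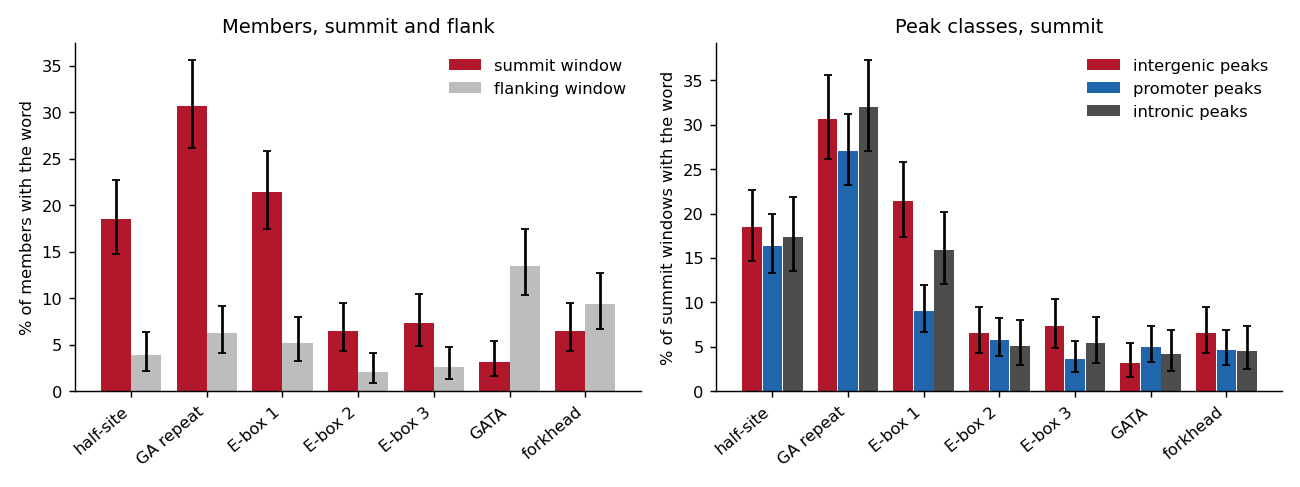
Share of members with each planned word in the summit and the flanking window (left), and share of summit windows with it in intergenic, promoter and intronic peaks (right), with 95% exact intervals over peaks. The half-site is AGGTCA, the GA repeat is the word GAGAGA, E-boxes 1 to 3 are CAGGTG and the other two in the order given above, and E-box 1 is at 21.4% of intergenic against 9.02% of promoter summits.

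Copies of the 3 leading words gathered near the summit. Over 384 members, AGGTCA had 37 copies in the 50 bp to the left of the summit and 21 in the 50 bp to the right, while bins of 50 bp at 400 bp or more from it held 1 to 9. In the 71 members with AGGTCA, 67 windows held 1 copy and 4 held 2. The 4 pairs were 2 direct and 2 everted repeats with 25 to 75 bases between the copies, and none had 10 bases or fewer between them, as the printed windows show. Only exact copies were counted. Pairs of AGGTCA with a changed copy were not, such as ACGTCA shortly before it in the printed C47A4.1 window.

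**Figure D5:**
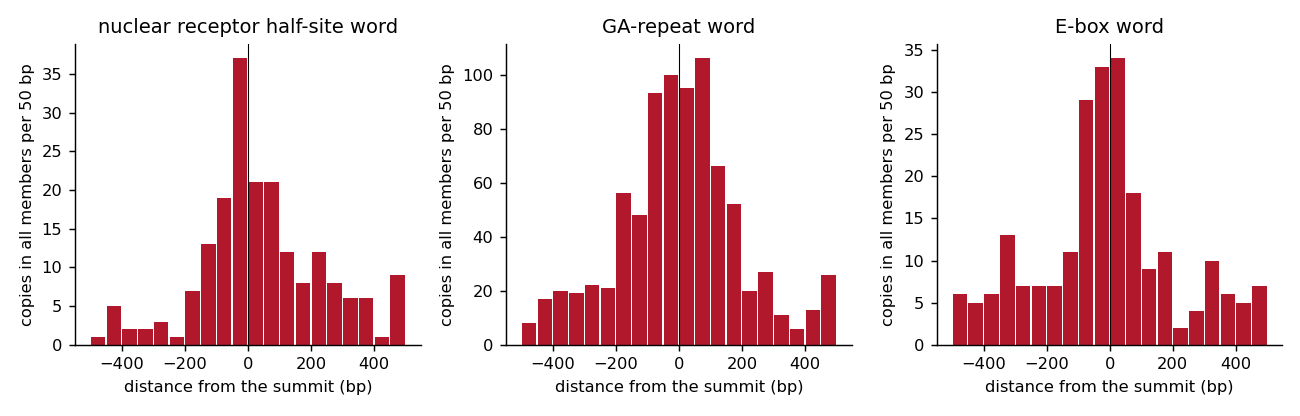
Copies of AGGTCA (left), GAGAGA (middle) and CAGGTG (right) on either strand in the 384 members, in bins of 50 bp by distance from the summit. In each panel the fullest bin lies within 100 bp of the summit, and vertical scales differ.

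Members were cut by signal into 4 groups of 96, from weakest to strongest. AGGTCA was in 16.7%, 15.6%, 12.5% and 29.2% of them, so it was most frequent in the strongest group and least in the one below it. GAGAGA was most frequent in the second group, at 40.6%, and CAGGTG ranged from 14.6% to 27.1%. The half-site and the GA repeat were together in 26 members, and the half-site, the GA repeat or any of the 3 E-boxes was in 63.3% of summit windows and 18% of flanks. The remaining 36.7% of members, including those at cyd-1 and egl-1 printed above, had no exact copy of these words, and their median signal was 91.7.

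Set against the other classes of peak, 1 word passed the test. CAGGTG was in 21.4% of intergenic summits and 9.02% of promoter summits, an odds ratio of 2.74 (two-sided Fisher exact test, p adjusted over 14 tests 4.92e-06). The flanking windows differed in the same direction, with CAGGTG in 5.21% of those of members and 2.40% of those of promoter peaks. Whether the summits differ beyond their flanks was not tested. Among the strongest 930 peaks CAGGTG was in 20.4% of intergenic and 11.7% of promoter summits, and the call was lost (exact test, adjusted p = 0.303). Among peaks above the median signal, a setting chosen after the result was seen, it was in 20.3% of intergenic and 11.4% of promoter summits (exact test, adjusted p = 0.233). Against intronic summits, with 15.9%, the difference did not pass (exact test, adjusted p = 0.321).

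AGGTCA was at 18.5% of intergenic summits, 16.4% of promoter summits and 17.4% of intronic summits, and neither difference passed the exact test (adjusted p = 0.662 and 0.770). GAGAGA was at 30.7%, 27.1% and 32.0% in the same order (exact test, adjusted p = 0.520 and 0.770). A p above the threshold does not show that the classes have equal shares. With replicate 2's strongest regions in place of the thresholded list, 3 further differences from promoters passed the exact test. By that exact test they were 9.88 points for GAGAGA (adjusted p = 0.00878), 4.27 points for CACGTG (adjusted p = 0.0316) and 6.0 points for AGGTCA (adjusted p = 0.0455). With windows reaching 50 bp from the summit CACGTG passed too, at 4.25 points (exact test, adjusted p = 0.00937), against an adjusted p of 0.147 in the main windows. Among the strongest 930 peaks the AGGTCA difference was -7.78 points (exact test, adjusted p = 0.303).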

How the data were processed

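ChIP-seq of NHR-2 was analysed from the peak lists that the authors deposited for 2 biological replicates and for the series. Per the texts deposited with the libraries, candidate lists came from ChIP and control alignments, and the thresholded list from comparing them by the irreproducible discovery rate (IDR). The aligner and the peak caller were not given in the sources used here. The same holds for the IDR cut-off. The deposited signal is the authors' score, and candidate lists hold 30000 regions each. Lists on ce11 were used with WBcel235 and Ensembl release 115 genes; all regions lay within its chromosome lengths. Sequence is from the RefSeq genome of that assembly. Members were assigned to the nearest protein-coding 5′ end, counted on 17242 autosomal genes. Eligible sequence excluded genes, promoter windows and bases within 190 bp of ncRNA genes. Replicate values are the strongest overlapping candidate region. Tests were exact McNemar and Fisher tests with Benjamini-Hochberg adjustment (scipy 1.17.1, Python 3.11.15), called at 0.05. Only the McNemar test was checked on simulated data, where both windows of a pair were shuffles of the same summit window. That check does not cover pairs that differ in GC content, as the members' summits and flanks do. Intervals are 95% Clopper-Pearson. The genes named are those of the 20 strongest members, up to 3 per gene group, up to 10 with the most members, and nhr-2; others are marked. Members, groups, words and lists were chosen with earlier results of these data known. Alternatives covered promoter windows, thresholds, each replicate alone, merged summits, word windows, flanks and gene assignment.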

Additional observations from a re-analysis of the deposited data

How the results depend on the processing

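Of 267 alternative values, 205 stayed within the limits used for their kind. These were the same side of the threshold without a change of sign for a test, 1.5 times the value for a count, and the exact interval or replicate spread for a share or median. They include 3 GTAAAC differences of 0 against flanks, which keep no direction. A further 18 lost a call, 5 gained one, 20 turned direction and 19, which had no test, moved. Every value that turned belonged to a difference that had not passed its test. The causes of these changes were not tested. No paired analysis was possible because there was a single group of 2 replicates. Word values here are differences in percentage points, summit minus flank or intergenic minus other class. Promoter windows of 500 and 2000 bp gave median distances of 2239 and 3689 bp, which the window sets by construction. The 2000 bp window gave an upstream share of 68.4%. The share of eligible bases upstream was computed for the 1000 bp window only, so it is no reference for this value. The strongest 930 peaks gave 235 members, 4.23% of candidates, a median distance of 2798 bp, and -4.20 for signal above the median against intronic peaks. They gave 3.40 for CACGTG against flanks (call lost), -7.78 for AGGTCA and 8.76 for CAGGTG against promoter peaks, and -0.556 for AGGTCA and 2.38 for GAGAGA against intronic peaks. Leaving out the top 10% gave 6.18% of candidates, 9.05 for signal against intronic peaks, 3.50 for CAGCTG and 4.08 for CACGTG (both calls lost). Windows reaching 50 bp gave 2.34 for CAGCTG against flanks (call lost), -0.703 for CAGCTG, 4.25 for CACGTG (call gained) and 0.280 for TGATAA against promoter peaks, and 0.826 for GAGAGA against intronic peaks. Windows reaching 100 bp gave 0.778 for GAGAGA and 0.301 for TGATAA against intronic peaks. A flank at 600 bp gave 4.17 for CACGTG (call lost) and 1.30 for GTAAAC. Chosen after the data were seen, pairs of similar GC content gave 0 words called (151 at an unadjusted p under 0.05), 9.64 for AGGTCA, 13.3 for GAGAGA, 9.64 for CAGGTG, 6.02 for CAGCTG, 3.61 for CACGTG, -1.20 for TGATAA and 1.20 for GTAAAC. Flanks wholly outside genes, also chosen afterwards, gave 3.92 for CAGCTG and 4.52 for CACGTG (both calls lost). Peaks above the median signal, likewise, gave -7.26 for AGGTCA, 8.93 for CAGGTG and -0.166 for CAGCTG against promoter peaks, and 2.72 for GAGAGA against intronic peaks. With each replicate's own regions in place of the thresholded list, the median distance ran from 2696 to 2769 bp and signal against intronic peaks from -0.132 to 6.56. Against flanks CAGCTG ran from 2.70 to 3.84 and CACGTG from 2.45 to 6.58. Against promoter peaks AGGTCA ran from 0.518 to 6.0, GAGAGA from 2.71 to 9.88, CAGCTG from -1.88 to 1.12 and CACGTG from 1.92 to 4.27. Against intronic peaks AGGTCA ran from -0.129 to 1.75, GAGAGA from -1.86 to 3.35 and CAGCTG from -2.28 to -0.0429. Members among the strongest regions of both replicates were 68.2% with an overlap of 0.5 of the peak and 87.8% among the 3000 strongest. Assignment to both flanking genes gave 519 genes, with 5 nuclear hormone receptors, 5 cell cycle, 7 Wnt, 7 apical matrix, 2 ribosomal protein, 11 chemoreceptor and 4 collagen genes.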
